A study of Homo sapiens with 9 samples.

Results

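The comparison described here is that of BCL10 S136X, a truncated form of the adaptor protein BCL10, with an empty vector in RIVA cells. It rests on 6 of the 9 libraries of the series, 3 of S136X and 3 of vector. They were chosen by their labels and by the date shared in the names of their count columns. RIVA is an established human lymphoma line of the activated B-cell-like type of DLBCL (diffuse large B-cell lymphoma), with a rearranged BCL6 gene and an activating NOTCH2 mutation. The cells carried the doxycycline-inducible plvx-Tetone vector, either empty or with BCL10 S136X, and both groups received 200 ng/mL doxycycline for 24 h. The characteristics field of the labels lists the same dose per microlitre. Endogenous BCL10 was left in place in both groups, so S136X was added to it and did not replace it. RNA was then sequenced after poly(A) selection. All libraries come from 1 line, and nothing in the labels says whether replicates were separate infections or only separate cultures, so p-values measure the spread between these samples.

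BCL10 is the adaptor that brings the paracaspase MALT1 into the CBM complex, which carries signals from the B-cell receptor to the IKK kinases and so to NF-kB. NF-kB dimers in turn switch on genes for survival, adhesion, co-stimulation and their own inhibitors. The carboxy-terminal stretch of BCL10 that the truncation removes is rich in serine and threonine, and phosphorylation there is known to regulate the protein.

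The S136X change falls in the last coding exon of BCL10, exon 3 of 3. Of the 233 codons of the reference gene (GRCh38), 135 (57.9%) precede the serine codon that S136X turns into a stop. Of the serine and threonine codons in the gene, 18 lie before that codon and 26 from it on.
The base change used to make the stop codon is not given in the sources used here.

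Levels are given as CPM (each library's counts brought to one common depth, with TMM scaling), and a fold change is the log2 fold change of S136X over vector with its standard error (SE, 3 against 3 libraries). A gene was called, and is said to have risen or fallen, at an adjusted p under 0.05 (edgeR quasi-likelihood test, Benjamini-Hochberg over all genes tested) together with a change of at least 1.5-fold. The labels number the replicates but do not say whether the numbers pair the libraries. For gene types, gene lists and single genes, results with the replicate number as a block are also given. They are given where the block loses or gains a call or alters a count by over 1.5 times. BCL10 itself was at 26.5, 39.1 and 27.8 CPM in the vector libraries and at 492, 413 and 348 CPM in the S136X libraries. It rose by 3.75 ± 0.18 (adjusted p = 2.6e-05), the largest increase among called protein-coding genes with a mean of at least 1 CPM. Counts per gene do not separate reads of the insert from those of the endogenous gene.

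Depth ranged from 28047713 to 33122267 counts per library, of which 95.3 to 96.0% fell on protein-coding genes and 0.931 to 1.17% on lncRNA genes. The first principal component (41.2% of the variance) separated the groups, and the second (27.7%) set replicate 1 of both groups apart from replicates 2 and 3. The labelled cell type held: 15 of 16 B-cell identity genes passed the filter on low counts, with PAX5 the most abundant. Their summed level was 3801 to 4255 CPM in vector and 3431 to 4179 CPM in S136X libraries. Of 8 myeloid markers, 0 passed the filter, and their sum stayed between 0.265 and 0.675 CPM (before scaling) with 3 to 5 of them at 0 in each library. Of 8 T-cell markers, 3 passed, with 2 to 4 at 0, and of these CD28 was lower with the block (log2 -1.49). Of 9 fibroblast and epithelial markers 6 passed, and their sum was 48.1 to 79.0 CPM (before scaling). The epithelial marker EPCAM was the highest of them in every library, at 1060 to 1604 counts.

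In total 15530 of 60656 listed genes had enough counts to be tested, 12123 of them protein-coding and 2175 lncRNA genes. Among protein-coding genes 290 rose and 198 fell, beside 2.05% of all tested genes that rose and 1.82% that fell. With the replicate block 387 rose and 390 fell (2.90% and 3.63% of all tested genes). Among lncRNA genes 24 rose and 60 fell without the block, and 47 rose and 124 fell with it. The 3 S136X and 3 vector libraries did not overlap for 31.3% of all tested genes. Of the 15530 tested genes 4145 had an unadjusted p under 0.05 (edgeR without the block), and 46.9% had a log2 fold change above 0. Large changes of protein-coding genes were mostly increases. At 2-fold or more 135 rose and 47 fell (180 and 100 with the block), and at 4-fold or more 25 rose and 1 fell (34 and 3 with the block). Among lncRNA genes 22 rose and 26 fell at 2-fold or more (36 and 48 with the block). Scaling bore on the balance of all called genes, since at 1.5-fold or more scaling by total counts alone gave 232 protein-coding genes higher and 267 lower, and upper-quartile scaling gave 250 and 239. The count also leaned on single libraries, since leaving out vector replicate 2 gave 175 protein-coding genes higher and 76 lower, and leaving out S136X replicate 3 gave 206 and 99.

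The protein-coding genes that fell were less abundant than those that rose, with a median of 12.2 CPM against 37.1 CPM and 29.3 CPM for all tested. Among protein-coding genes above 30 CPM, 2.70% rose and 0.901% fell, while between 1 and 3 CPM 2.38% rose and 3.25% fell. The median log2 fold change moved with level in the same way, from -0.20 between 1 and 3 CPM to 0.04 above 30 CPM. For lncRNA genes the median was -0.19 over all tested, against 0.00 for protein-coding genes, and 31.6% of lncRNA genes had a value above 0. It lay between -0.17 and -0.23 in each range of level up to 30 CPM and at -0.06 for the 51 lncRNA genes above that. At low levels the 2 types were alike. Up to 1 CPM, where 1067 of the 2175 lncRNA genes lay, the medians were -0.17 for lncRNA and -0.16 for protein-coding genes. From 1 to 3 CPM (605 lncRNA genes) both were -0.20. They differed from 3 to 10 CPM (-0.23 against -0.08 for protein-coding genes) and from 10 to 30 CPM (-0.20 against -0.02).

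**Figure D1:**
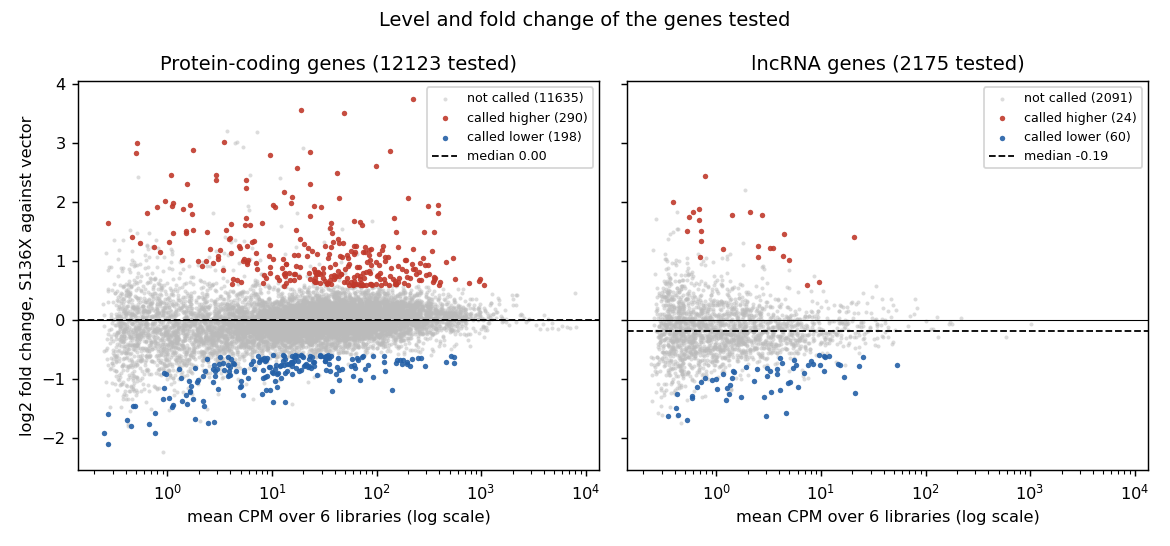
Log2 fold change of S136X over vector against mean CPM over the 6 libraries (log scale) for each tested protein-coding gene (left) and lncRNA gene (right), with called genes in colour and the median as a dashed line. The 290 raised protein-coding genes reach further from 0 than the 198 lowered ones, and the lncRNA median over all levels lies at -0.19 against 0.00. Up to 1 CPM the medians are -0.17 for lncRNA and -0.16 for protein-coding genes, and from 10 to 30 CPM -0.20 and -0.02.

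Among the largest increases outside the chemokines were genes of surface and metal-binding proteins. EBI3, the subunit that IL-27 and IL-35 share, was at 6.07, 5.76 and 5.01 CPM in vector and at 44.7, 38.6 and 38.1 CPM in S136X libraries (log2 2.85 ± 0.11, adjusted p = 5.15e-06). MT2A, a metal-binding metallothionein, went from 3.65, 4.93 and 6.49 CPM to 21.3, 29.6 and 39.0 CPM (log2 2.58 ± 0.26, adjusted p = 0.000879). For MT2A replicate 1 was the lowest and replicate 3 the highest library in both groups, and the groups lay far apart for both genes. SLAMF7, a surface receptor of the SLAM family known from plasma cells, was at 8.10, 14.0 and 15.5 CPM in vector and at 58.9, 71.6 and 81.7 CPM in S136X libraries (log2 2.50 ± 0.22, adjusted p = 0.000478). TNFSF15, a TNF-family ligand, was low throughout, at 0.326 to 0.339 CPM against 1.38 to 2.23 CPM (log2 2.45 ± 0.28, adjusted p = 0.00168). EPHB1, an ephrin receptor kinase, spread widely within each group (0.389, 1.48 and 0.801 against 1.79, 6.06 and 6.83 CPM; log2 2.46 ± 0.55, adjusted p = 0.0265). Its call was lost with limma-voom and without S136X replicate 2 or 3 or any 1 vector library, with values of 2.12 to 3.04 over the left-out libraries.

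Among the lowered protein-coding genes, KLF2, a transcription factor that keeps lymphocytes quiescent and sustains S1PR1, was at 16.2, 14.3 and 13.8 CPM in vector and at 3.89, 8.03 and 5.06 CPM in S136X libraries. It fell by 1.38 ± 0.23 on the log2 scale (adjusted p = 0.0088). S1PR1, the receptor through which lymphocytes leave lymphoid tissue, was at 12.2, 12.9 and 11.5 CPM against 4.03, 6.84 and 5.31 CPM and fell by 1.17 ± 0.18 (adjusted p = 0.0063). In both genes every S136X library lay below every vector library, and S136X replicate 2 was the highest of its group. TSC22D3, the glucocorticoid-induced leucine zipper protein, was at 1.97, 2.99 and 2.52 CPM against 0.964, 0.999 and 0.990 CPM (log2 -1.34 ± 0.22, adjusted p = 0.00874). HSPG2, which encodes the basement membrane proteoglycan perlecan, was at 23.3, 14.0 and 20.1 CPM against 9.23, 6.06 and 6.58 CPM (log2 -1.39 ± 0.22, adjusted p = 0.00642).

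NPTX1, a pentraxin known from synapses, was at 3.50, 2.93 and 3.47 CPM in vector and at 0.861, 1.22 and 1.52 CPM in S136X libraries (log2 -1.46 ± 0.23, adjusted p = 0.00731). KIAA1614, a gene of unknown role, went from 1.82, 1.36 and 1.72 CPM to 0.585, 0.437 and 0.743 CPM (log2 -1.48 ± 0.27, adjusted p = 0.0124). ISM2, which encodes a secreted protein, went from 2.84, 3.11 and 3.44 CPM to 1.24, 1.31 and 1.10 CPM (log2 -1.36 ± 0.19, adjusted p = 0.00415). These 3 genes kept their calls under every alternative other than a stricter threshold, which was not applied to single genes. Less firm were A4GALT, the synthase of the globoside CD77 (log2 -1.44 ± 0.31, adjusted p = 0.0225), PLCH2, a phospholipase C (log2 -1.43 ± 0.30, adjusted p = 0.0205), and G6PC, the catalytic subunit of glucose-6-phosphatase (log2 -1.37 ± 0.29, adjusted p = 0.0217). Each lost its call without S136X replicate 3, vector replicate 1 or vector replicate 2, with values of -1.75 to -1.17, -1.78 to -1.25 and -1.53 to -1.11. DEPP1, a target of FOXO factors, was at 7.48, 3.30 and 2.19 CPM in vector and at 1.55, 1.16 and 1.24 CPM in S136X libraries (log2 -1.72 ± 0.43, adjusted p = 0.0376). Its call was lost with limma-voom, in the fit on all 9 libraries and without S136X replicate 2 or 3 or vector replicate 2. Leaving out single libraries moved the value between -2.02 and -1.05.

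**Figure D2:**
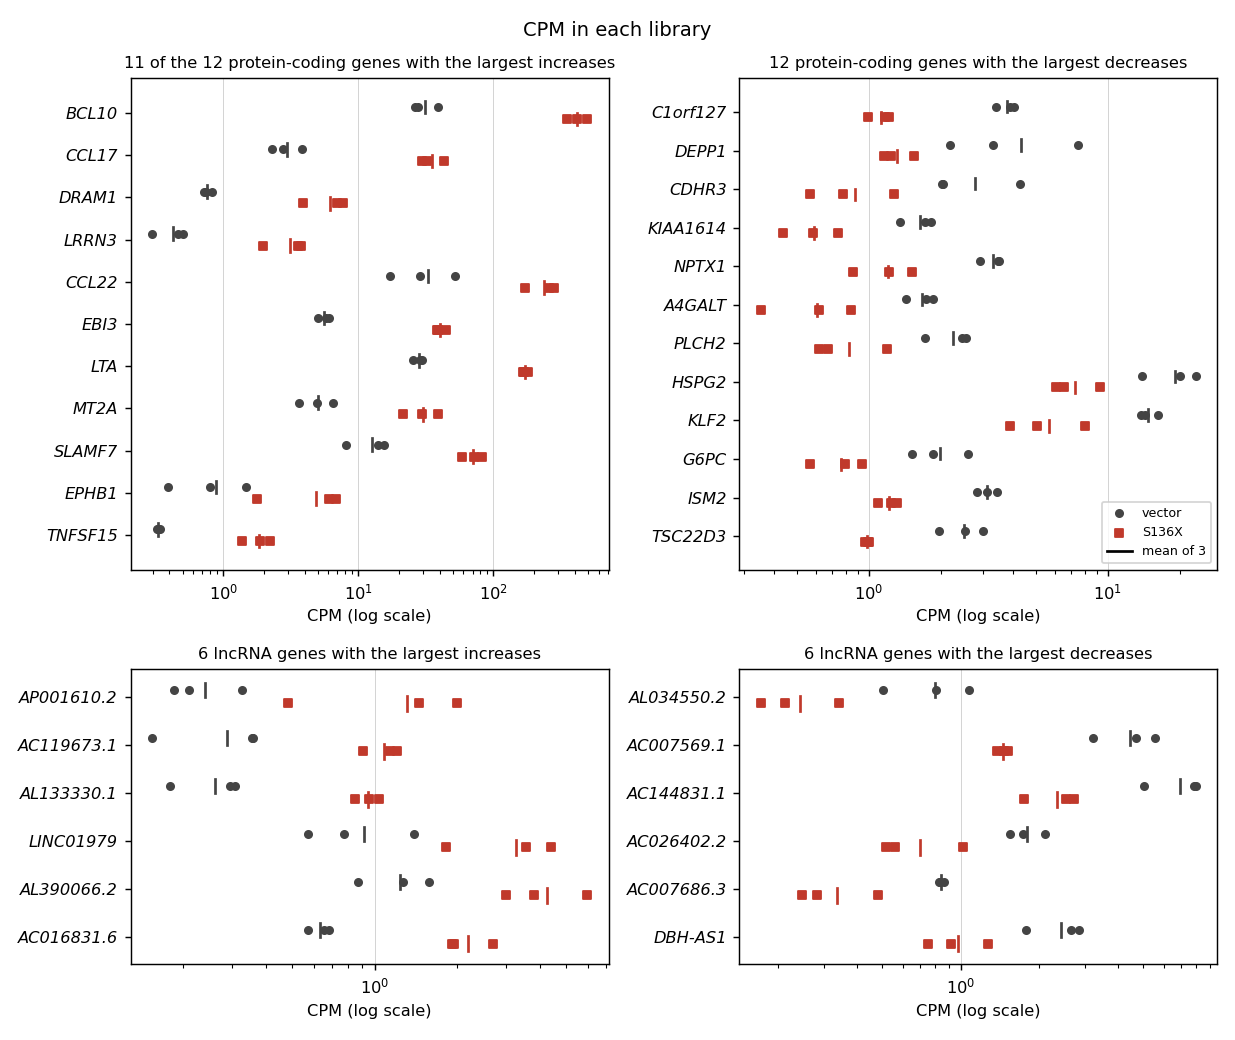
CPM (log scale) in each of the 3 vector and 3 S136X libraries, with the group mean as a bar, for 11 of the 12 protein-coding genes with the largest increases, the 12 with the largest decreases and the 6 lncRNA genes of each direction. The groups do not overlap for any gene shown, BCL10 rises from 26.5 to 39.1 CPM to 348 to 492 CPM, and most lowered genes lie below 10 CPM.

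Abundant genes changed less. The 6 raised genes with the highest mean level were LCP1, ATF5, IRF4, PMAIP1, DDX21 and CKB. LCP1, an actin-bundling protein of leukocytes, was at 838, 872 and 856 CPM in vector and at 1329, 1218 and 1332 CPM in S136X libraries (log2 0.60 ± 0.07, adjusted p = 0.00153), close to the 1.5-fold limit. Its call was lost under total-count and upper-quartile scaling and without S136X replicate 1, with values of 0.58 to 0.65 over the left-out libraries. ATF5, a factor of the amino acid response (log2 0.69 ± 0.18, adjusted p = 0.0473), lost its call in 8 of the alternatives, among them limma-voom, both of these scalings and the fits without S136X replicate 1 or 3 or vector replicate 2 or 3 (values of 0.44 to 0.87). CKB, the brain-type creatine kinase, was at 381, 312 and 348 CPM against 829, 614 and 715 CPM (log2 1.05 ± 0.12, adjusted p = 0.00153). PMAIP1, the BH3-only protein NOXA, was at 610.3, 597 and 575 CPM against 947, 969 and 855 CPM (log2 0.64 ± 0.07, adjusted p = 0.00146), a call lost under total-count scaling. DDX21, a helicase of ribosomal RNA processing, was at 446, 432 and 412 CPM against 731, 680.5 and 671 CPM (log2 0.69 ± 0.07, adjusted p = 0.000698). Replicates agreed closely for PMAIP1 and DDX21, while CKB was highest in replicate 1 of both groups.

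The 6 lowered genes with the highest mean level were ALDH5A1, PCDH9, ETS1, PLEKHA2, CDC25B and WNK2. ALDH5A1, the mitochondrial dehydrogenase that completes the breakdown of GABA, was at 742, 700.2 and 628 CPM in vector and at 406, 481 and 365 CPM in S136X libraries (log2 -0.73 ± 0.11, adjusted p = 0.00533). CDC25B, a phosphatase that activates cyclin-dependent kinases, was at 425, 347 and 328 CPM against 233, 224 and 186 CPM (log2 -0.78 ± 0.12, adjusted p = 0.0055). WNK2, a kinase of ion transport, was at 344, 306 and 329 CPM against 205, 222 and 199 CPM (log2 -0.64 ± 0.07, adjusted p = 0.00138). In all 3 genes the groups were clearly apart, and replicate 3 was the lowest S136X library. PLEKHA2, a phosphoinositide-binding adaptor, fell by 0.71 ± 0.11 (adjusted p = 0.00688). PCDH9, a protocadherin, fell by 0.62 ± 0.12 (adjusted p = 0.0161), with the call lost without S136X replicate 2 or 3 or vector replicate 1 or 2 (values of -0.77 to -0.51). ETS1, a lymphocyte transcription factor known to hold back plasma cell differentiation, fell by 0.60 ± 0.11 (adjusted p = 0.015), with the call lost without S136X replicate 1 or 3 or vector replicate 1 or 2 (values of -0.71 to -0.49).

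The genes of the pathway were read in order of their roles. Of 13 tested genes of the CBM complex and the IKK kinases, the list that holds BCL10's partners and the kinases below them, 0 were called by edgeR with or without the block, 0 by DESeq2 or limma-voom, and 1 had an unadjusted p under 0.05. Their median was 0.03. Of 11 NF-kB subunits and IkB inhibitors 6 rose, which were NFKB1, NFKB2, NFKBIA, NFKBIZ, NFKBIE and NFKBID, and the list median was 0.65 beside -0.02 over all tested genes. NFKBIA, the inhibitor that NF-kB itself induces, was at 331, 291 and 299 CPM in vector and at 643, 601 and 581 CPM in S136X libraries (log2 0.99 ± 0.07, adjusted p = 0.000236). Of 13 ubiquitin-editing brakes 3 rose (TNFAIP3, OTULIN and TNIP2, median 0.16), and TNFAIP3, the deubiquitinase A20, was at 112, 125 and 139 CPM against 249, 257 and 261 CPM (log2 1.03 ± 0.08, adjusted p = 0.000278). Of 15 TRAF adaptors and inhibitors of apoptosis 3 rose (TRAF1, CFLAR and BIRC3, median 0.10). BIRC3, a ubiquitin ligase of the TNF receptor pathway, was at 173, 191 and 167 CPM against 341, 296 and 274 CPM (log2 0.78 ± 0.09, adjusted p = 0.00184). NFKBIA, TNFAIP3 and BIRC3 were each well apart between the groups, while 10 of the 13 ubiquitin-editing brakes and 12 of the 15 TRAF adaptors and inhibitors of apoptosis were not called. OTULIN (log2 0.59) lost its call under total-count and upper-quartile scaling and without S136X replicate 2 or vector replicate 3 (values of 0.57 to 0.64), and NFKBIZ without S136X replicate 1 (lowest value 0.54).

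Surface genes of adhesion and co-stimulation were the next group. Of 19 adhesion genes 4 rose and 1 fell (6 and 2 with the block), with a median of 0.30. CD58, the ligand of T-cell CD2, was at 6.28, 9.09 and 8.10 CPM in vector and at 38.8, 37.8 and 39.2 CPM in S136X libraries (log2 2.30 ± 0.13, adjusted p = 5.15e-05). CD44, the hyaluronan receptor, was at 126, 133 and 129.8 CPM against 519, 468 and 494 CPM (log2 1.93 ± 0.06, adjusted p = 2.64e-06). ICAM1, the ligand of the integrin LFA-1, was at 207, 201 and 221 CPM against 476, 486 and 461 CPM (log2 1.18 ± 0.06, adjusted p = 4.13e-05). For these genes the libraries of each group lay close together and the gap between groups was several times their spread. CD82, a tetraspanin, rose by 1.26 ± 0.17 (adjusted p = 0.00375). SELPLG, the selectin ligand PSGL-1, was the member that fell, from 7.33, 6.56 and 7.06 CPM to 3.72, 3.34 and 2.62 CPM (log2 -1.11 ± 0.16, adjusted p = 0.00521).

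Of 8 tested co-stimulatory and checkpoint ligands 3 rose and 0 fell (5 and 0 with the block), with a median of 0.71. CD80 was at 3.14, 5.18 and 6.08 CPM in vector and at 18.8, 22.7 and 23.1 CPM in S136X libraries (log2 2.17 ± 0.21, adjusted p = 0.000858). CD86, the other ligand of CD28, was at 61.7, 56.3 and 64.5 CPM against 116, 98.2 and 112 CPM (log2 0.84 ± 0.08, adjusted p = 0.000829). CD70, the ligand of CD27, rose by 0.82 ± 0.18 (adjusted p = 0.0229), a call lost without S136X replicate 2 or 3 or vector replicate 1 or 2 (values of 0.69 to 1.08). Its receptor went the other way: CD27 was at 92.0, 71.9 and 73.2 CPM against 35.5, 48.7 and 38.8 CPM and fell by 0.95 ± 0.13 (adjusted p = 0.00441). Among 15 tested TNF receptor genes 3 rose (CD40, FAS and TNFRSF18), or 6 with the block, and 2 fell (CD27 and TNFRSF17) with and without it. FAS lost its call without S136X replicate 2 or 3 or vector replicate 2 or 3 (values of 0.86 to 1.12), and TNFRSF18 in 8 of the alternatives. CD40, the receptor of T-cell help, was at 142, 157 and 143 CPM against 291, 277 and 289.7 CPM (log2 0.96 ± 0.06, adjusted p = 0.000127). TNFRSF17, the plasma cell receptor BCMA, was at 19.8, 15.7 and 18.4 CPM against 9.26, 11.6 and 8.88 CPM (log2 -0.86 ± 0.14, adjusted p = 0.00712).

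Receptors of B-cell migration moved in both directions, 2 up and 2 down of 14 tested (3 and 2 with the block, which added GPR183), with a median of 0.13. PTGER4, a prostaglandin E2 receptor, was at 9.84, 10.5 and 16.4 CPM in vector and at 29.3, 50.8 and 58.4 CPM in S136X libraries (log2 1.91 ± 0.27, adjusted p = 0.00441). CCR7, which guides cells to the T-cell zone, was at 26.3, 29.2 and 48.6 CPM against 66.9, 64.2 and 84.1 CPM (log2 1.05 ± 0.21, adjusted p = 0.0187), and lost its call without S136X replicate 3 or vector replicate 2 (values of 0.89 to 1.38 over the left-out libraries). CXCR4, the receptor of the germinal centre dark zone, was at 111, 102 and 85.6 CPM against 46.0, 76.3 and 46.3 CPM and fell by 0.82 ± 0.19 (adjusted p = 0.0288), a call lost without S136X replicate 3 or vector replicate 1 or 2 (values of -1.10 to -0.69). S136X replicate 2 was nearer to the vector libraries than the other S136X libraries for CXCR4, as it was for S1PR1 and KLF2. Of 36 actin and motility genes 6 rose and 1 fell, with a median of 0.02. PLEK, the protein kinase C substrate pleckstrin, was at 146, 192 and 174 CPM against 573, 650.2 and 585 CPM (log2 1.82 ± 0.10, adjusted p = 5.32e-05). TRIP10, a membrane-bending partner of CDC42, was at 36.0, 37.4 and 39.2 CPM against 90.9, 83.3 and 96.0 CPM (log2 1.26 ± 0.07, adjusted p = 5.32e-05). RHOF, MYO1C and FSCN1 rose by less (log2 1.07, 0.74 and 0.68), and FSCN1 lost its call without S136X replicate 3 or vector replicate 2 (values of 0.59 to 0.81).

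Transcription factors of B-cell identity were divided. IRF4, which drives the activated B-cell programme, was at 723, 696 and 811 CPM in vector and at 1160.5, 1174 and 1207 CPM in S136X libraries (log2 0.67 ± 0.07, adjusted p = 0.00153). BCL6, a transcription factor of germinal centre B cells and the gene rearranged in this line, was at 144, 183 and 197 CPM against 361, 322 and 344 CPM (log2 0.97 ± 0.11, adjusted p = 0.00162). POU2AF1, the co-activator of octamer factors, was at 238, 264 and 239 CPM against 126, 188 and 129 CPM (log2 -0.74 ± 0.14, adjusted p = 0.0154). Of the 23 tested fate factors 3 rose (IRF4, BCL6 and BATF) and 2 fell (ETS1 and ID3; BACH2 as well with the block), with a median of 0.05, and the fall of ID3 (log2 -0.87 ± 0.23, adjusted p = 0.0499) was lost in 7 of the alternatives. BATF lost its call without vector replicate 2 (values of 0.79 to 1.17). The call on POU2AF1 was lost without S136X replicate 3 or vector replicate 2 (values of -0.94 to -0.63). FCER2, the low-affinity IgE receptor CD23, was at 18.8, 16.1 and 17.8 CPM against 10.5, 12.6 and 8.60 CPM (log2 -0.74 ± 0.14, adjusted p = 0.0154). With POU2AF1 it made up the 2 lowered genes of the 15 tested B-cell identity genes, whose median was -0.19 with 0 raised. Of 16 tested markers of ABC-DLBCL 5 rose and 0 fell (IRF4, BATF, PIM2, ENTPD1 and CYB5R2; 6 and 0 with the block), with a median of 0.15. Of 12 tested markers of germinal centre DLBCL 2 rose (BCL6 and DENND3) and 1 fell (MME), or 2 and 2 with the block, which added SSBP2. MME lost its call with limma-voom and without any 1 S136X library or vector replicate 1 or 2 (values of -0.85 to -0.47), and DENND3 in the fit on all 9 libraries and without vector replicate 2 or 3 (values of 0.78 to 1.23). PIM2 lost its call without vector replicate 2 (lowest value 0.69). ENTPD1, the ectonucleotidase CD39, was at 26.0, 22.1 and 27.6 CPM against 68.4, 45.1 and 74.1 CPM (log2 1.31 ± 0.17, adjusted p = 0.00345).

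Lists of other signalling routes differed in how many members were called. Of 20 ERK pathway genes 5 rose and 0 fell (6 and 0 with the block, which added DUSP4), with a median of 0.51 and 17 above 0. MAP3K8, the kinase that couples IKK to ERK, was at 34.3, 36.2 and 37.0 CPM in vector and at 123, 96.5 and 111 CPM in S136X libraries (log2 1.62 ± 0.09, adjusted p = 5.32e-05). SPRED2, a feedback inhibitor of RAS, was at 53.5, 58.6 and 58.2 CPM against 97.3, 105 and 97.7 CPM (log2 0.82 ± 0.07, adjusted p = 0.000285). An activator and an inhibitor of the route thus rose together. Of 16 AP-1 and ATF factors 5 rose and 0 fell (6 and 0 with the block, which added FOS), with a median of 0.44, among them FOSL1 at 0.867, 0.709 and 1.13 CPM against 3.13, 2.25 and 2.44 CPM (log2 1.53 ± 0.25, adjusted p = 0.00746). Without vector replicate 2 that count was 1. Of 20 Notch genes 3 rose and 0 fell (2 fell with the block), with a median of -0.04. NOTCH2 itself, mutated in this line, was at 62.9, 62.1 and 79.5 CPM against 159.9, 130.4 and 176 CPM (log2 1.19 ± 0.13, adjusted p = 0.00138). MAML2, a Notch co-activator, rose by 1.10 ± 0.13 (adjusted p = 0.00235). SGK1, a kinase downstream of phosphoinositide 3-kinase, was at 2.87, 7.39 and 7.65 CPM against 23.6, 29.2 and 23.1 CPM (log2 2.08 ± 0.30, adjusted p = 0.00487), and the lipid kinase subunit PIK3CD rose by 0.77 ± 0.06 (adjusted p = 0.000276).

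Other signalling lists were called on both sides or hardly at all. Of 24 WNT pathway genes 0 rose and 1 fell, with 18 below 0 and a median of -0.15. The lowered member was the ligand gene WNT2B (log2 -1.68 ± 0.44, adjusted p = 0.0456), below 1 CPM in mean level in both groups, and it lost its call in 7 of the alternatives. Of 16 Toll-like receptor pathway genes edgeR without the block, DESeq2 and limma-voom called 0, with 3 at an unadjusted p under 0.05 and a median of -0.09, and 1, CD180, was lower with the block. Of 18 immediate early genes 2 rose (PPP1R15A and IER3) and 2 fell (KLF2 and BTG2), with a median of 0.15. Of 35 axon guidance ligands and receptors 3 rose and 4 fell (5 and 3 with the block), with a median of -0.11. Of 22 B-cell receptor signalling genes 2 rose, PIK3CD and VAV2 (the latter lost in 4 of the alternatives), and 0 fell (3 and 0 with the block, which added RASGRP3), with a median of 0.01.

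Growth, stress and metabolic lists are to be read beside the 2.05% of all tested genes that rose and the 1.82% that fell. Their counts at an unadjusted p under 0.05 stand beside 4145 of all 15530 tested genes, and their counts above 0 beside 46.9% of them. Of 41 cell cycle and replication genes 0 rose and 1, CDC25B, fell (median -0.06), with 10 at an unadjusted p under 0.05. DESeq2 and limma-voom also called 0 of them higher, and with the block 1, CDK6, was higher and 1 lower. All 30 tested genes of MYC targets and ribosome biogenesis had a value above 0 (median 0.35), and 26 of them had an unadjusted p under 0.05. In 25 of them the groups did not overlap, beside 31.3% of all tested genes. At 1.5-fold or more 4 were called, namely POLR1C, NOP16, LYAR and RRP12 (log2 0.78, 0.74, 0.62 and 0.60). POLR1C and NOP16 were called under total-count and upper-quartile scaling as well, and LYAR and RRP12 were not. Of 85 cytosolic ribosomal protein genes edgeR, DESeq2 and limma-voom called 0, with 13 at an unadjusted p under 0.05 and a median of 0.08. Of 32 cholesterol and fatty acid synthesis genes 30 lay above 0 (median 0.26), 20 had an unadjusted p under 0.05, and 2 rose, INSIG1 and CYP51A1 (ELOVL6 was lower with the block), the latter sharing 89.9% of its sequence words with another listed gene. INSIG1, which restrains sterol synthesis, was at 209.9, 200.3 and 181 CPM in vector and at 388, 284 and 276 CPM in S136X libraries (log2 0.68 ± 0.13, adjusted p = 0.0137), a call lost without S136X replicate 1 or vector replicate 2 (values of 0.51 to 0.78). S136X replicate 1 lay well above the other S136X libraries for INSIG1. Of 31 glycolysis and hypoxia genes edgeR called 0 without the block and 1 with it, DESeq2 1 and limma-voom 0, with 11 at an unadjusted p under 0.05. Of 20 antioxidant and iron genes 3 rose and 0 fell (median 0.12), among them the transferrin receptor TFRC (log2 0.67 ± 0.07, adjusted p = 0.000829). Of 30 chromatin modifiers all 3 tools called 0, with 10 at an unadjusted p under 0.05.

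Of 22 p53 target genes 4 rose and 3 fell (median 0.06). AEN, a nuclease, and PLK3, a stress kinase, both rose by 1.15 (adjusted p = 0.000236 and 0.00134). DDB2, a DNA damage sensor, was at 39.1, 36.7 and 41.8 CPM in vector and at 23.8, 25.0 and 24.4 CPM in S136X libraries (log2 -0.68 ± 0.08, adjusted p = 0.00146). BTG2, an antiproliferative gene, was at 191, 220.3 and 210.0 CPM against 114, 145 and 129 CPM (log2 -0.68 ± 0.09, adjusted p = 0.00424). The list thus had well-separated members on both sides. Among 224 solute carriers 8 rose and 3 fell (9 and 5 with the block), with a median of -0.01. SLC2A5, the fructose transporter GLUT5, was at 112, 91.9 and 76.4 CPM against 45.1, 55.0 and 38.0 CPM (log2 -1.02 ± 0.16, adjusted p = 0.00675). SLC43A3, a nucleobase transporter, rose by 1.19 ± 0.06 (adjusted p = 4.13e-05), with 48.7% of its sequence words shared with an overlapping listed gene. Of 64 ion channel subunits 3 rose and 3 fell (7 fell with the block), and KCNH2, a potassium channel, was at 73.7, 53.3 and 48.7 CPM against 36.0, 28.1 and 23.3 CPM (log2 -1.01 ± 0.19, adjusted p = 0.0128). Of 428 zinc finger genes 1 rose and 1 fell (5 fell with the block), although only 126 lay above 0 and their median was -0.10. Of all tested protein-coding genes 50% lay above 0.

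**Figure D3:**
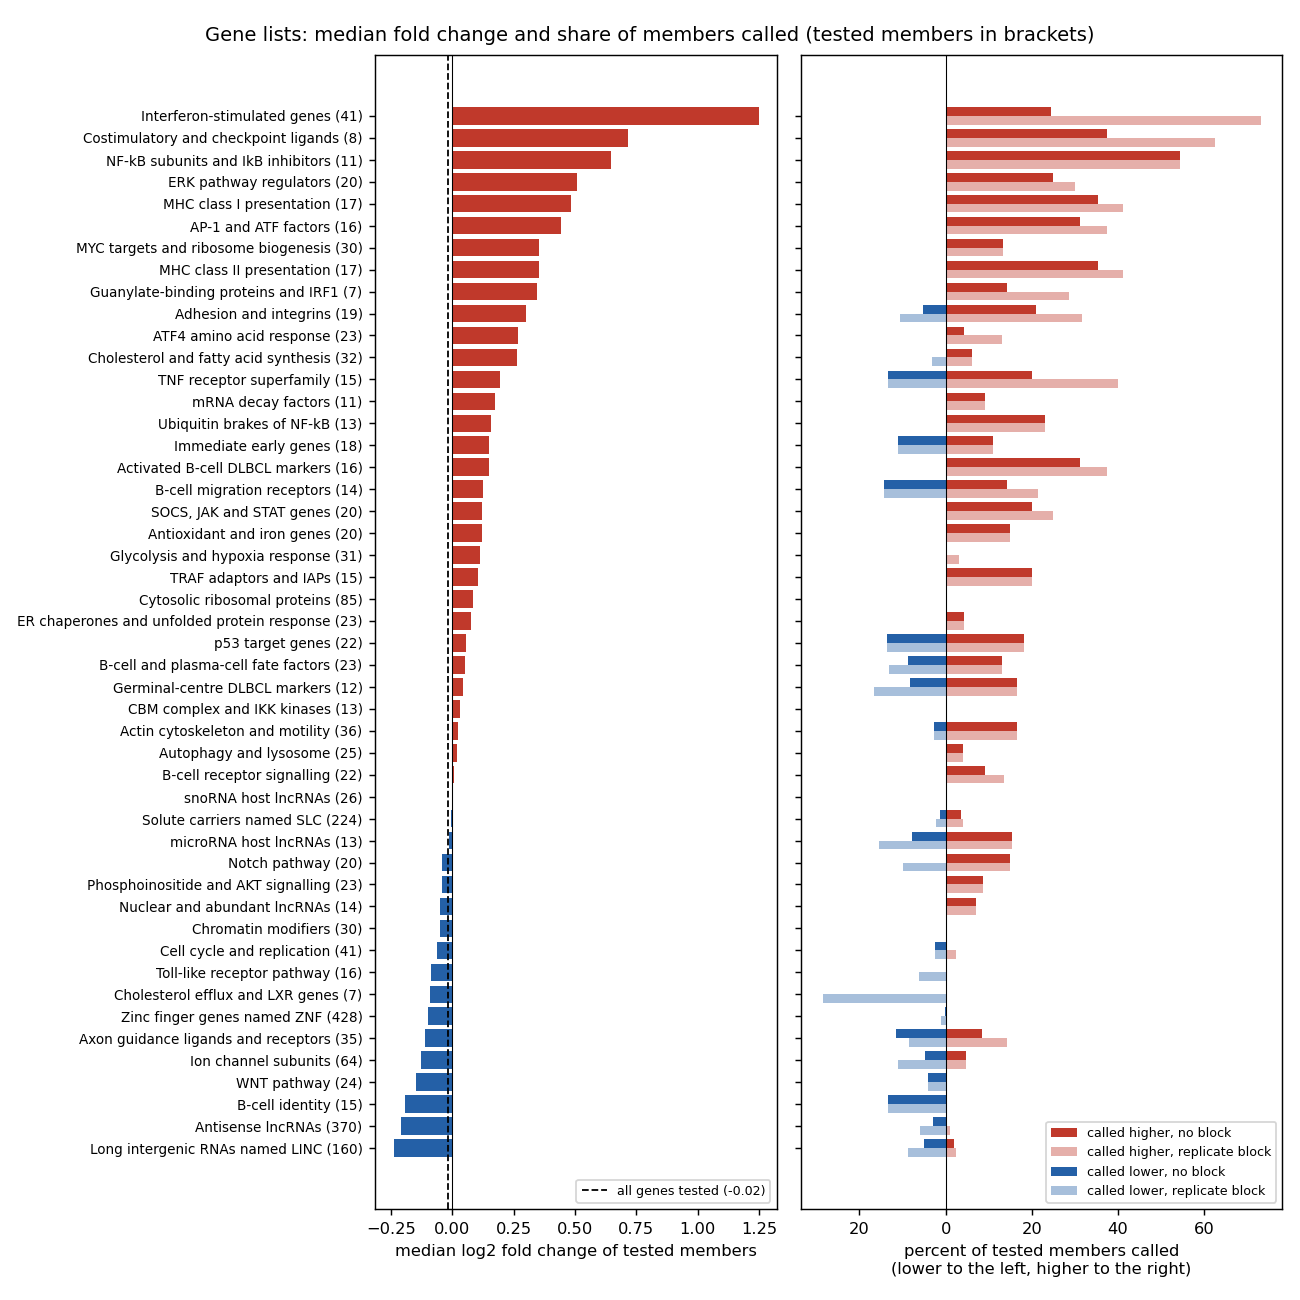
Left, median log2 fold change of the tested members of each gene list, with the dashed line at the median over all genes tested (-0.02). Right, percent of members called higher (to the right) or lower (to the left) without and with the replicate block. Interferon-stimulated genes have the highest median (1.25) and the largest gain with the block. The lists of antisense and LINC lncRNAs lie at the low end (-0.21 and -0.24), near the median of all tested lncRNA genes (-0.19).

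Genes of antigen presentation and of the interferon response varied with the replicate number. IFI44L, an interferon-stimulated gene, was at 2.18, 10.6 and 11.1 CPM in vector and at 9.57, 188 and 71.9 CPM in S136X libraries (log2 3.50 ± 0.93, adjusted p = 0.0473). The groups overlapped, because S136X replicate 1 lay below vector replicates 2 and 3, while within each replicate number S136X was higher. Its call was lost in 9 of the alternatives, among them limma-voom, total-count and upper-quartile scaling and the fits without S136X replicate 2 or 3 or any 1 vector library (values of 2.37 to 4.03). OASL, a relative of the antiviral oligoadenylate synthases, was at 0.538, 1.36 and 0.949 CPM against 1.72, 9.34 and 3.64 CPM (log2 2.37 ± 0.59, adjusted p = 0.0376). Its call was lost with limma-voom, in the fit on all 9 libraries and without S136X replicate 2 or 3 or any 1 vector library (values of 1.51 to 2.78). For OASL the groups did not overlap. Of 41 tested interferon-stimulated genes 40 lay above 0, and 10 rose without the block and 30 with it, while 0 fell. That count depended on single libraries. It was 34 when S136X replicate 1 was left out, 6 and 2 when S136X replicate 2 or 3 was, and 1, 0 and 7 when vector replicate 1, 2 or 3 was. Their summed level was 818, 1162 and 1327 CPM in vector and 1236, 4031 and 2346 CPM in S136X libraries.

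Among 17 MHC class II genes 6 rose (7 with the block) and 0 fell, with a median of 0.35. CIITA, the master activator of the class, was at 71.9, 78.8 and 89.4 CPM in vector and at 147, 167 and 169 CPM in S136X libraries (log2 1.01 ± 0.09, adjusted p = 0.000568). HLA-DRA, the alpha chain of HLA-DR, was at 79.9, 95.1 and 112 CPM against 163, 256 and 260.2 CPM (log2 1.24 ± 0.18, adjusted p = 0.00521). Both were lowest in replicate 1 of either group and did not overlap. HLA-DRB1, whose sequence is shared in part with its neighbours, overlapped between groups and lost its call (log2 1.77 ± 0.47, adjusted p = 0.0493) in 10 of the alternatives, with values of 1.48 to 2.22 over the left-out libraries. Among 17 MHC class I genes 6 rose (7 with the block) and all lay above 0 (median 0.48). TAP1, a peptide transporter subunit, was at 31.3, 37.0 and 47.5 CPM against 46.2, 126 and 85.2 CPM (log2 1.15 ± 0.31, adjusted p = 0.0493), which also overlapped. It lost its call in 10 of the alternatives, among them limma-voom, both scalings and the fits without S136X replicate 2 or 3 or any 1 vector library (values of 0.78 to 1.45). Leaving out single libraries gave 2 to 7 raised class II genes and 0 to 9 raised class I genes, and 2 class I genes rose under total-count scaling.

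**Figure D4:**
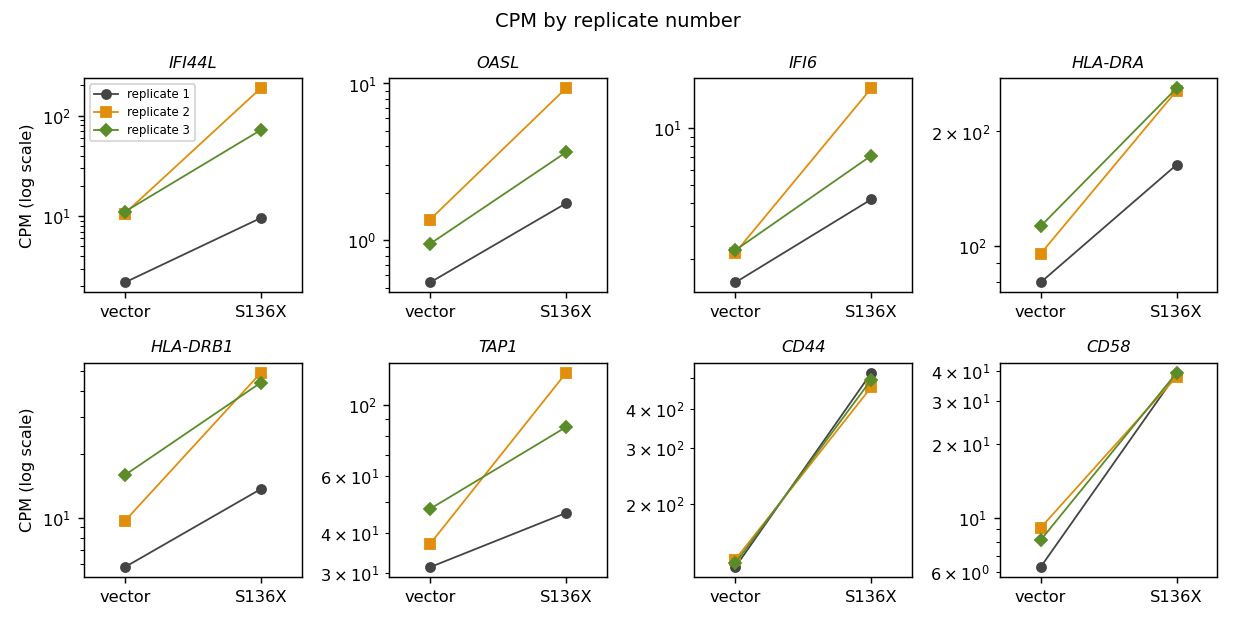
CPM (log scale) of 8 genes in vector and S136X libraries, with a line joining the 2 libraries of each replicate number. IFI44L, OASL, IFI6, HLA-DRA, HLA-DRB1 and TAP1 are lowest in replicate 1 of both groups and rise along all 3 lines, while for CD44 and CD58 every S136X library lies far above every vector library.

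Among lncRNA genes that rose, MIR155HG was the most abundant, at 9.21, 12.2 and 12.6 CPM in vector and at 29.3, 30.7 and 29.8 CPM in S136X libraries (log2 1.40 ± 0.12, adjusted p = 0.00042). It is the host transcript of miR-155, a microRNA of activated B cells. Of 13 tested microRNA host genes 2 rose, MIR155HG and the host of miR-9 (listed as C1orf61, log2 1.03 ± 0.23, adjusted p = 0.024), and 1 fell, MIR600HG (log2 -0.62 ± 0.14, adjusted p = 0.025), or 2 and 2 with the block. C1orf61 lost its call without S136X replicate 3 or vector replicate 1 or 2 (values of 0.82 to 1.21), and MIR600HG without S136X replicate 1 or 3 or vector replicate 2 or 3 (values of -0.79 to -0.51). The mature sequences in these hosts are shown, from RefSeq on GRCh38.p14 with the seed (bases 2 to 8) in capitals, because these 3 hosts were called. Their 5 seeds all differ.
hsa-miR-155-5p (chr21:25573983-25574006, plus strand): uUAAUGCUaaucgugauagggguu
hsa-miR-155-3p (chr21:25574022-25574043, plus strand): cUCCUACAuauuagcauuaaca
hsa-miR-9-5p (chr1:156420392-156420414, minus strand): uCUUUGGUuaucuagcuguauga
hsa-miR-9-3p (chr1:156420354-156420375, minus strand): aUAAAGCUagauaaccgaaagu
hsa-miR-600 (chr9:123111561-123111583, minus strand): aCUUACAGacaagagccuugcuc
The libraries measured the polyadenylated hosts and not the mature microRNAs.

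The 60 lowered lncRNA genes outnumbered the 24 raised ones under each scaling (68 and 22 with total counts, 64 and 23 with the upper quartile), while leaving out single libraries gave 11 to 53 lowered and 10 to 23 raised, with 11 and 10 without vector replicate 2. Between 3 and 30 CPM the share that fell was highest, at 6.69% from 3 to 10 CPM and 8.13% from 10 to 30 CPM. IFNG-AS1, the antisense neighbour of the interferon gamma gene, was at 27.4, 29.5 and 30.9 CPM in vector and at 15.6, 16.2 and 19.2 CPM in S136X libraries (log2 -0.78 ± 0.10, adjusted p = 0.00304). AC144831.1 was at 7.95, 7.83 and 5.04 CPM against 1.76, 2.53 and 2.72 CPM (log2 -1.57 ± 0.24, adjusted p = 0.00571). Both were well separated in all libraries. LINC00996 was at 4.70, 6.13 and 3.20 CPM against 2.58, 1.72 and 1.77 CPM (log2 -1.21 ± 0.27, adjusted p = 0.0265), and lost its call without S136X replicate 2 or 3 or vector replicate 1 or 2 (values of -1.42 to -0.96). Other lowered lncRNA genes with large values were close to the detection limit, among them AL034550.2 (log2 -1.68 ± 0.41) and AC007686.3 (log2 -1.32 ± 0.32), which lost their calls in 8 and 7 of the alternatives. Of 370 tested antisense lncRNAs 1 rose and 11 fell (4 and 22 with the block), with a median of -0.21. Of 160 long intergenic RNAs named LINC 3 rose and 8 fell (4 and 14 with the block), with a median of -0.24. Both are to be read beside all tested lncRNA genes, of which 1.10% rose and 2.76% fell (2.16% and 5.70% with the block), with a median of -0.19. Of 26 snoRNA host genes edgeR, DESeq2 and limma-voom called 0, with 5 at an unadjusted p under 0.05 and a median of 0.00.

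Of the 24 raised lncRNA genes, 10 overlapped a tested protein-coding gene, 8 of them on the opposite strand, and 4 more had one within 10 kb. In 6 of these 14 pairs (42.9%) the coding gene also rose, and in 0 it fell, with a median of 0.56 for the coding genes. Of the 60 lowered lncRNA genes 42 had such a neighbour, of which 6 (14.3%) fell and 1 rose (2.38%), with a median of -0.32. Beside the 1770 lncRNA genes that had a neighbour and were not called, 2.60% of neighbours rose and 1.07% fell. AL133330.1 lies in CD44 on the same strand and was at 0.179, 0.308 and 0.297 CPM in vector and at 1.03, 0.843 and 0.955 CPM in S136X libraries (log2 1.84 ± 0.31, adjusted p = 0.00907). Its call was lost with DESeq2 and with a minimum of 10 counts in every library. AC011511.2, opposite ICAM1, rose by 1.21 ± 0.26 (adjusted p = 0.0215), and AP001610.2, opposite MX1, by 2.43 ± 0.53 (adjusted p = 0.0242). Each lost its call in 4 of the 6 fits that left out a library, AC011511.2 without replicate 1 or 3 of S136X or replicate 2 or 3 of vector (1.04 to 1.36) and AP001610.2 without replicate 2 or 3 of S136X or replicate 1 or 2 of vector (2.00 to 2.83). AP001610.2 also lost it with limma-voom and with a minimum of 10 counts in every library. AC007569.1 overlaps the lowered SELPLG on the opposite strand. PIK3CD had antisense partners on both sides of the test: PIK3CD-AS1 was at 1.88, 1.88 and 2.52 CPM against 4.37, 4.47 and 5.77 CPM (log2 1.21 ± 0.20, adjusted p = 0.00772), while PIK3CD-AS2 was at 4.72, 3.67 and 4.30 CPM against 2.48, 2.22 and 2.26 CPM (log2 -0.87 ± 0.17, adjusted p = 0.0161), a call lost without S136X replicate 3 or vector replicate 3 (values of -0.96 to -0.77). PANTR1 (log2 -1.16) and LINC01159 (log2 -0.86) lie on either side of the lowered neural factor gene POU3F3 (log2 -0.84), and these lost their calls in 4, 7 and 5 of the alternatives. Whether the counting used strand is not given in the sources used here, so reads of overlapping genes cannot be told apart.

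**Figure D5:**
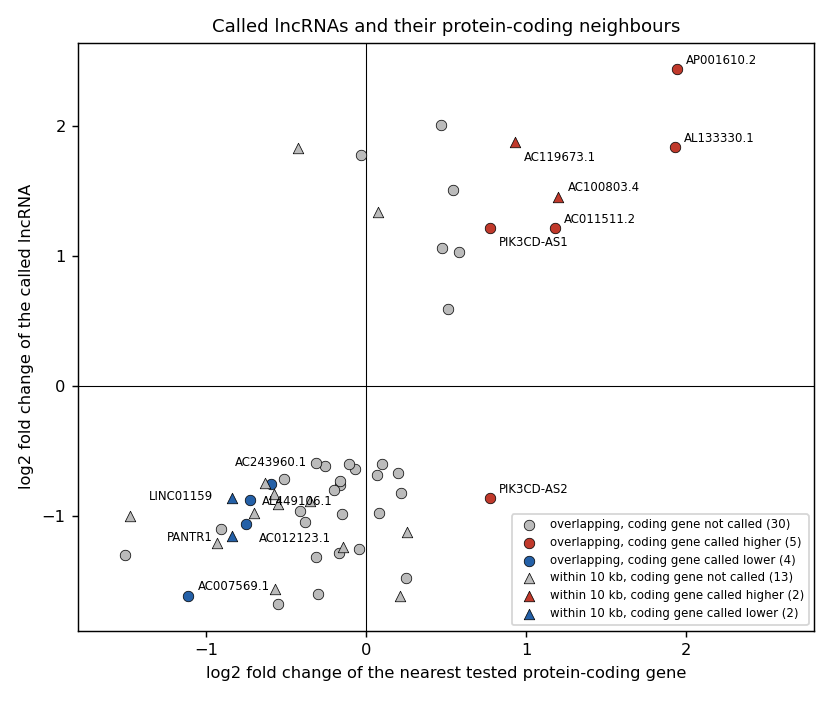
Log2 fold change of each called lncRNA gene with a protein-coding neighbour against that of the neighbour, with circles for overlapping genes, triangles for genes within 10 kb and colour where the neighbour was called. The 14 raised lncRNA genes have 6 raised and 0 lowered neighbours, and the 42 lowered ones have 1 raised and 6 lowered neighbours.

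Promoters of the called protein-coding genes were searched on both strands for 4 motifs in the 250 bases before the RefSeq start (GRCh38.p14). Only the first listed start of each gene was used, and other starts were not searched. For some genes, such as EPHB1, that start lies inside the gene as listed. The motifs were the NF-kB consensus GGGRNNYYCC (R is A or G, Y is C or T, N is any base), the AP-1 motif TGANTCA, the ISRE of interferon-response factors (GAAA, any 2 bases, GAAA) and the CRE motif TGACGTCA. Overlapping matches of different motifs were each counted. A promoter sequence was matched for 224 of the 290 raised genes, 144 of the 198 lowered genes and 9858 of all 12123 tested protein-coding genes. The NF-kB motif was present in 21.0% of raised, 12.5% of lowered and 11.8% of all tested genes. The ISRE motif was present in 8.48%, 1.39% and 2.53%, and the AP-1 motif in 4.91%, 6.94% and 3.70%. The CRE motif was found in 2.68%, 1.39% and 3.02%. Over all 27305 promoters in the RefSeq set the shares were 9.57% for NF-kB, 3.07% for ISRE, 6.60% for AP-1 and 1.77% for CRE. A match describes letters in the window and not a bound site. The 3 promoters below, chosen after their values were seen, show a raised gene with NF-kB motifs, a gene with both NF-kB and ISRE motifs whose call was lost in 10 of the alternatives (TAP1), and a lowered gene that carries NF-kB motifs as well, with motif matches in capitals.
BIRC3 (chr11:102317234-102317483, plus strand): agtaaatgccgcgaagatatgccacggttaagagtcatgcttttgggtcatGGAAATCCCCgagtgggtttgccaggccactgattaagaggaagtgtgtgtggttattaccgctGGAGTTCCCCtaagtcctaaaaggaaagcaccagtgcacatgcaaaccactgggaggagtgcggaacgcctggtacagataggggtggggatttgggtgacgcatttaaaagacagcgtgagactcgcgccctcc
TAP1 (chr6:32853705-32853954, minus strand): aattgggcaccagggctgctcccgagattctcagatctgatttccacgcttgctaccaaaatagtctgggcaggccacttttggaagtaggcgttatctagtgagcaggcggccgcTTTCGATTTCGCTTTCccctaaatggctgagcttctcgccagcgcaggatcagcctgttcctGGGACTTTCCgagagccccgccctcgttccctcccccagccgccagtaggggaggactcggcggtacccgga
WNK2 (chr9:93183889-93184138, plus strand): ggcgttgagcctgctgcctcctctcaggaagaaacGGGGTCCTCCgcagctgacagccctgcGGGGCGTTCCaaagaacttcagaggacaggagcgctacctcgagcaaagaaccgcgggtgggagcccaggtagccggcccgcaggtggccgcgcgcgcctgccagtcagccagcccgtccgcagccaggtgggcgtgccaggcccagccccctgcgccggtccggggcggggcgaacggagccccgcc
In BIRC3 the NF-kB matches begin 199 and 135 bases before the start, and in WNK2 they begin 215 and 188 bases before it. TAP1 holds 2 overlapping ISRE matches on the reverse strand and 1 NF-kB match.

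A few genes of other cell types were called at low levels. COL1A1, a fibroblast collagen, was at 3.08, 3.39 and 5.19 CPM in vector and at 9.68, 10.5 and 16.4 CPM in S136X libraries (log2 1.65 ± 0.26, adjusted p = 0.00648), the 1 called gene of 6 tested fibroblast and epithelial markers (COL1A2 was lower with the block). PRF1, the perforin of cytotoxic cells, was below 1 CPM in all libraries (0.652 to 0.770 against 0.172 to 0.354 CPM, log2 -1.45 ± 0.34, adjusted p = 0.0291), and its call was lost in 7 of the alternatives, namely DESeq2, a minimum of 10 counts in every library and the fits without S136X replicate 1 or 2 or any 1 vector library (values of -1.72 to -1.24). CD8A did not differ beyond its spread, at 3.89, 3.79 and 6.38 CPM against 4.44, 4.34 and 5.02 CPM (log2 -0.03 ± 0.22). All libraries come from 1 line, so these values do not measure admixed cells of another kind. Within the line, bulk RNA does not tell a change in the share of cells that express a gene from a change in RNA per cell.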

How the data were processed

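RNA from RIVA cells was sequenced on an Illumina NovaSeq instrument from Nugen Universal Plus mRNA-Seq libraries. The submitters' processing notes name cutadapt, STAR, Picard and hg38, without versions, and the counting program, annotation and strand setting are not given in the sources used here. In 1 table the authors deposited raw read counts for every gene, used here, and their own normalized values of the same libraries, not used here. The table has 0 value columns without a sample. Of the 15530 tested identifiers 15386 are in GENCODE release 29, and 15362 of these overlap it in position, so coordinates are on GRCh38 as listed.

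Counts of the 6 libraries (28047713 to 33122267 each) were filtered with filterByExpr (minimum count 10, minimum total 15), scaled by TMM and tested with the edgeR 4.0.16 quasi-likelihood F test in R 4.3.3, with Benjamini-Hochberg adjustment. The SE was taken as the absolute log2 fold change over the square root of F. Alternatives were DESeq2 1.42.0, limma-voom (limma 3.58.1), other scalings, filters and thresholds, a fit on all 9 libraries, a replicate block, and each library left out. The procedure was tested on simulated data in which each gene had its own small replicate effect. Replicate effects shared by many genes were not simulated, so that test does not bear on the choice between fits with and without the block. Deviations from the group means correlated at 0.461, 0.153 and 0.442 between libraries of the same replicate number. Between unlike numbers the correlations were -0.465 to 0.125, the highest for vector replicate 3 with S136X replicate 2. Deviations within a group of 3 are tied to each other, so these values are not independent. The block takes the numbers as pairing the libraries, which the labels do not state. No library was a copy of another of its group (chi-square over degrees of freedom 7.96 to 24.1).

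Named genes are BCL10, the 12 highest and 12 lowest protein-coding changes with a mean of at least 1 CPM, the 6 highest and 6 lowest lncRNA changes with at least 0.5 CPM, the 6 most abundant called protein-coding genes of each direction, all without overlap of the groups, and the 3 largest called changes in each gene list. Other called members are named, after their values were seen, where a count is broken down, and not every gene that the rule selects is described, some being not reported here. The members and lists were chosen with earlier results of these data known. Sequence words shared with other genes were counted as 31-base words of the longest GENCODE transcript. Genes were called neighbours when overlapping or within 10 kb.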

Additional observations from a re-analysis of the deposited data

How the results depend on the processing

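Of the 601 called genes 599 were also called with the replicate block, which called 1014, adding 133 higher and 282 lower, and gave 390 lower protein-coding, 47 higher lncRNA and 124 lower lncRNA genes. Without the filter on low counts 934 genes were called, with 337 lower protein-coding, 50 higher and 97 lower lncRNA genes. At 2-fold or more 243 were called (135 higher and 47 lower protein-coding, 26 lower lncRNA), at an adjusted p under 0.01 262 (173, 65 and 12, with 6 higher lncRNA), and with no fold threshold 1574 (902 and 529 protein-coding). Leaving out single libraries gave 279 to 705 genes, with 175 to 335 higher and 76 to 271 lower protein-coding and 10 to 23 higher and 11 to 53 lower lncRNA genes, the fewest without vector replicate 2 (279) and S136X replicate 3 (349). The cause was not tested. DESeq2 (667), limma-voom (559), a fit on all 9 libraries (644), a minimum of 10 counts in each library (584), upper-quartile (610) and total-count scaling (625) stayed within 1.5 times, but 53.1% of called genes were higher under TMM, 45.4% under upper-quartile scaling and 41.1% with total counts. The median over all genes moved from -0.02 to -0.06 and -0.07. Of 164 called genes chosen by the rule or named, 88 kept their call in every alternative other than a stricter threshold, and 0 changed direction.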

Other observations

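Immunoglobulin constant genes are listed as a type of their own, neither protein-coding nor lncRNA. IGHM was at 6908, 5860.0 and 5957 CPM in vector and at 5710.1, 5308 and 4952 CPM in S136X libraries (log2 -0.23, adjusted p = 0.166, or 0.0124 with the replicate block). IGHG1 shares 69.5% of its sequence words with other genes, most often IGHG3. It was at 4.64, 6.75 and 13.0 CPM against 14.4, 17.1 and 23.9 CPM, higher within each replicate number but not called without the block (log2 1.18 ± 0.34, adjusted p = 0.0616, or 0.000173 with it). Among the 1232 tested genes of other types, such as pseudogenes and receptor segments, 5 rose and 24 fell (17 and 49 with the block). TRBC2, a constant segment of the T-cell receptor that shares 35.0% of its sequence words with other genes, was at 43.7, 37.0 and 39.4 CPM against 18.2, 27.1 and 22.7 CPM (log2 -0.82 ± 0.14, adjusted p = 0.00876). These genes were named after their values were seen.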
